A study of Mus musculus with 12 samples.

Results

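The genes described here are 10 regulators of the G1 phase of the cell cycle in mouse hepatocytes: the D-type cyclin genes Ccnd1, Ccnd2 and Ccnd3, the E-type cyclin genes Ccne1 and Ccne2, the CDK inhibitor genes Cdkn1b, Cdkn1c and Cdkn2c, and the activator E2F genes E2f1 and E2f2. They were chosen by name and role, with earlier results of these data known, out of 46983 genes in the count files. Each matched a single Ensembl identifier. All 10 passed the filter on low counts that left 15664 genes to be tested. RNA was sequenced from cultured primary hepatocytes in 12 libraries, 3 in each of 4 groups: AEG-1-L24K/L25H hepatocytes given CP775146, AEG-1-L24K/L25H hepatocytes left untreated, AEG-1-WT hepatocytes given CP775146 and AEG-1-WT hepatocytes left untreated. AEG-1-L24K/L25H (the knock-in) is a mouse line made with CRISPR/Cas9 on the C57BL/6/J background, with the amino acid changes L24K and L25H in AEG-1, the protein encoded by Mtdh. AEG-1-WT mice (wild type) were littermates from heterozygous crosses, and all mice of the line ate regular chow outside the high-fat diet experiments. The age and sex of the donors are not given in the sources used here. CP775146 is an agonist of PPAR-alpha, the fatty acid sensing nuclear receptor of the liver, and was given at 2.5 µM for 24 h (the micro sign is in a symbol font in the labels). The labels name no vehicle for the untreated cultures. They do not tell whether the 3 libraries of each group stem from different mice or dishes, and the tests then measure only the spread between these libraries, which may be technical.

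Quiescent hepatocytes enter the cell cycle when mitogens induce cyclin D1, which pairs with CDK4 and CDK6 and starts the phosphorylation of the retinoblastoma protein. Cyclin E with CDK2 completes that step, the E2F factors are released, and genes of DNA replication, along with the cyclin E and E2F genes themselves, are transcribed. The inhibitors work against this: p18-INK4C (Cdkn2c) binds CDK4 and CDK6, and p27-KIP1 (Cdkn1b) and p57-KIP2 (Cdkn1c) block cyclin-CDK complexes. In the liver, cyclin D1 is the D-type cyclin best known for driving hepatocyte proliferation after partial hepatectomy and in culture.

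Promoter sequence is shown for the E-type cyclin gene that differed most between the genotypes and for E2f2, because E2F factors are known to act on both genes. RefSeq promoter windows (GRCm38.p6, from 250 bases before to 50 after an annotated start) were found for 6 of the 10 genes, in 9 windows. Ccnd1, Ccnd2, Ccne2 and Cdkn1c were not matched. The windows were searched on both strands for an E2F motif in the 4 spellings TTTCCCGC, TTTCGCGC, TTTGCCGC and TTTGGCGC (a match on one strand can overlap a match on the other). The motif stood in 1 of the 9 windows, and in 2.26% of all 32851 windows in the table. It lay in the first window of E2f2, at bases 40 to 47 after the RefSeq start, and is in capitals below. The Ensembl gene in the count files begins further downstream, at base 136172394, so the printed window precedes it. The window of Ccne1, given up to its RefSeq start, held no such spelling.
E2f2, chr4:136172024-136172323, plus strand: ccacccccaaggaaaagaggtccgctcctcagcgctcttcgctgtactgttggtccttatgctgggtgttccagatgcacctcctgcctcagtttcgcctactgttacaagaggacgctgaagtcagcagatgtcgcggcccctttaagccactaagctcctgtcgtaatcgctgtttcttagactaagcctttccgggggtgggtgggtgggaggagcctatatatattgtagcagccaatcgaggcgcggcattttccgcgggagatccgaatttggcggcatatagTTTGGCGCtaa
Ccne1, chr7:38107491-38107740, minus strand: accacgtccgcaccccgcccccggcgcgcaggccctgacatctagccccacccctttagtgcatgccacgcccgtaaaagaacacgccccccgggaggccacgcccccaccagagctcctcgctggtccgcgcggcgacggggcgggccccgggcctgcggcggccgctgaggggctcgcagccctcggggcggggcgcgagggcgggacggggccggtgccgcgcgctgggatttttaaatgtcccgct

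Total counts ran from 26956032 to 34885451 per library, and a count of 3 corresponds to 0.111 and 0.086 CPM (the count scaled to the size of the library, TMM-scaled below) at these totals. Such floors cover counting error only. The biological coefficient of variation was 2.61% in treated and 2.57% in untreated knock-in, against 5.32% in treated and 5.09% in untreated wild type. Mtdh averaged 193 ± 3.7 CPM in treated and 173 ± 2 CPM in untreated knock-in, against 181 ± 4.3 CPM in treated and 166 ± 8.5 CPM in untreated wild type (SD, n = 3), and gene counts cannot show the amino acid changes. All 8 hepatocyte markers were detected in every group, Alb included. Their summed level was 79300 to 81600 CPM in treated and 85400 to 90000 CPM in untreated knock-in, against 121000 to 127000 CPM in treated and 119000 to 121000 CPM in untreated wild type. Most of that sum was Alb, at 70500 ± 2300 CPM in untreated knock-in and 102000 ± 1600 CPM in untreated wild type. Between these groups 4 of the 8 markers fell, Apob rose, and Hnf4a, Cps1 and Ttr were not called. In bulk RNA, fewer cells of a type and less RNA per cell cannot be told apart. Over all tested genes, knock-in over wild type gave 2884 rises and 2918 falls without treatment (5024 and 1722 with total-count scaling), and 3218 and 3447 with CP775146 (5950 and 1867). CP775146 gave 2832 rises and 2989 falls in the knock-in (2066 and 4352 with total-count scaling) and 3553 and 3496 in wild type (2358 and 5338). The median of all genes, near 0 in the TMM-scaled fit, moved to 0.124 log2 for the treated genotypes and −0.104 log2 for CP775146 in wild type with total-count scaling.

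The levels of the 10 genes were set in order as CPM per kilobase of exonic length, the scale used wherever 1 gene is compared with another. In untreated knock-in hepatocytes Ccnd1 (9.78 ± 0.32) and Cdkn1b (9.42 ± 0.27) stood highest and did not differ beyond their spread. Ccnd3 (4.21 ± 0.088), E2f1 (3.14 ± 0.18), Ccne1 (3.04 ± 0.21), Ccne2 (1.98 ± 0.18), Cdkn2c (1.44 ± 0.1), E2f2 (0.976 ± 0.089), Cdkn1c (0.36 ± 0.16) and Ccnd2 (0.117 ± 0.036) followed, with E2f1 and Ccne1 within each other's spread. In untreated wild type Cdkn1b led at 9.96 ± 0.45, followed by Ccnd3 (4.03 ± 0.51) and Ccnd1 (3.43 ± 0.34), whose libraries overlapped. E2f1 (2.31 ± 0.18), Ccne2 (1.44 ± 0.1), Cdkn2c (1.19 ± 0.39), Ccne1 (0.955 ± 0.017), E2f2 (0.63 ± 0.052), Cdkn1c (0.353 ± 0.087) and Ccnd2 (0.078 ± 0.005) came after them, and Cdkn2c was not separated from Ccne2 above it or Ccne1 below it, given its spread. Ccnd1 thus stood level with Cdkn1b in the knock-in and below it in wild type, and Ccne1 stood above Ccne2 in the knock-in and below it in wild type. Of the exonic length of Ccnd1, 21.33% is shared with LTO1 on the opposite strand. The shares are 17.42% for Ccne2 with Ints8, 4.11% for Ccnd3 with Bysl and 7.86% for Ccnd2 with genes that held no counts. The other 6 genes share none. The counting command in the file headers has no option for reads that overlap several genes, which the tool then leaves uncounted, so per-length levels of these genes may be too low.

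**Figure D1:**
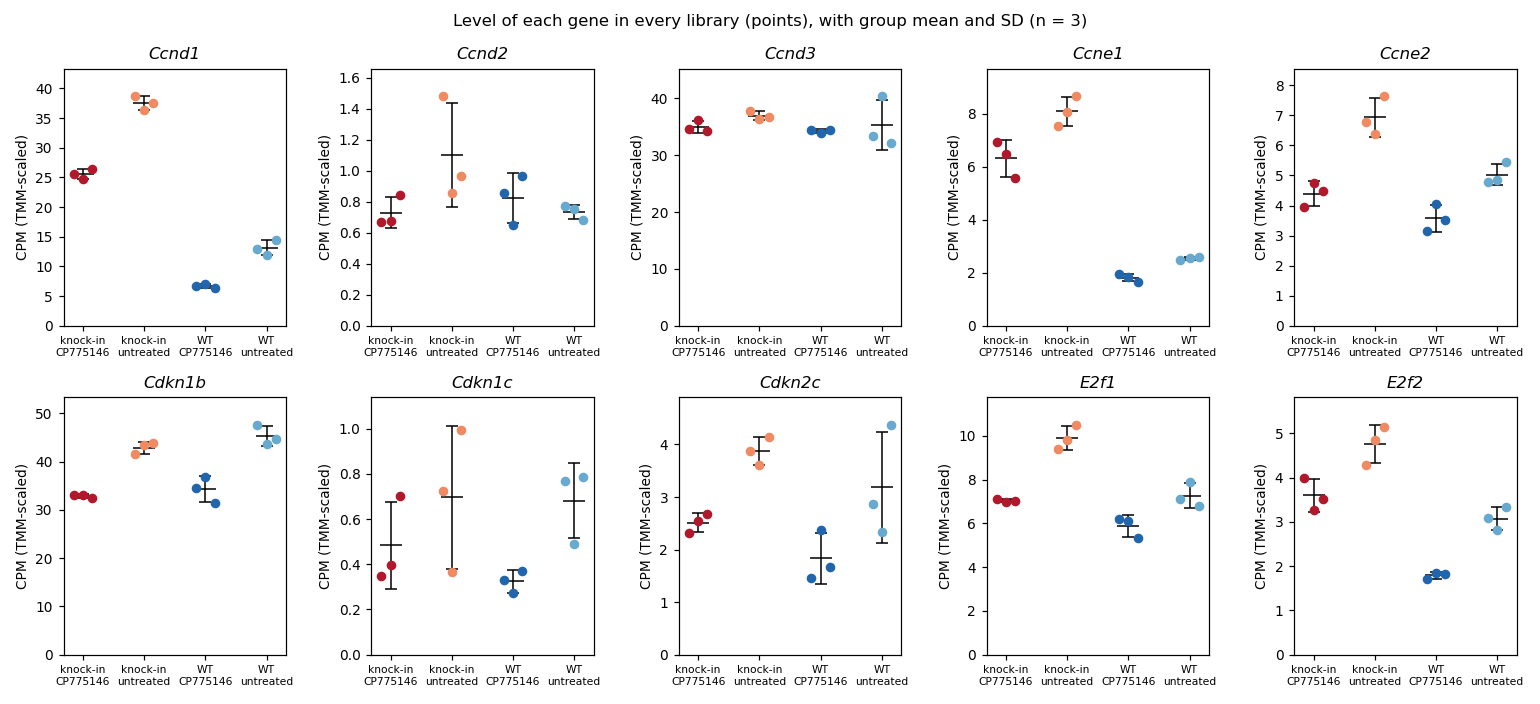
Level of each of the 10 genes in CPM on TMM-scaled library sizes (vertical axes, each from 0) in the 12 libraries, by group; points are libraries, and bars give the mean and SD of 3. Ccnd1 ran from 36.3 to 38.7 CPM in untreated knock-in and from 12 to 14.5 CPM in untreated wild type, while Ccnd3 stayed between 32.2 and 40.4 CPM in all groups.

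The make-up of the D-type cyclin transcripts differed with genotype. On the per-length scale Ccnd1 made up 69.3%, 69.1% and 69.6% of the summed level of the 3 genes in the untreated knock-in libraries, against 46.4%, 40% and 50.3% in the untreated wild-type libraries. With CP775146 it made up 62.4%, 60.6% and 63.3% in the knock-in and 30.1%, 31.7% and 29.2% in wild type. Every knock-in library was above every wild-type library. Ccnd3 averaged 37.2% ± 1.4 in treated and 29.9% ± 0.35 in untreated knock-in, against 68.1% ± 0.98 in treated and 53.4% ± 5.2 in untreated wild type (SD, n = 3). Ccnd2 contributed 0.72% to 1.53% as group means. Of the E-type cyclins, Ccne1 averaged 65.3% ± 4.1 in treated and 60.5% ± 1.6 in untreated knock-in, against 40.1% ± 4 in treated and 39.9% ± 1.4 in untreated wild type. These shares are a description and were not tested.

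**Figure D2:**
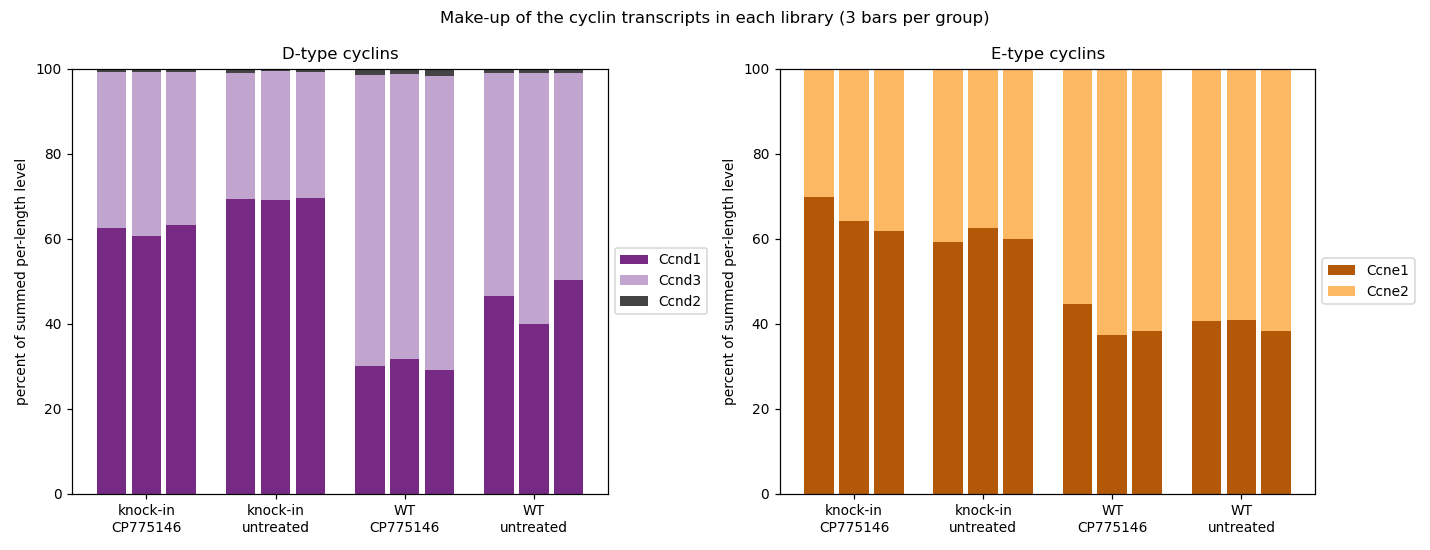
Share of each gene in the summed per-length level of the D-type cyclins (left) and E-type cyclins (right), in percent, with 1 bar per library and 3 per group. Ccnd1 took 60.6% to 69.6% across knock-in libraries and 29.2% to 50.3% across wild-type libraries.

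The first comparison asked how the knock-in differed from wild type without treatment. Of the 10 genes, 5 rose and none fell (edgeR quasi-likelihood test, Benjamini-Hochberg adjusted p below 0.05 over all genes), where 37% of all tested genes were called and 18.4% rose. The genes that rose were Ccnd1, both E-type cyclins and both E2F genes of the 10. The median over the 10 genes was 0.46 log2, against −0.004 log2 over all tested genes. None of the 3 inhibitor genes was called, nor were Ccnd2 and Ccnd3.

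Ccnd1 (ENSMUSG00000070348, chromosome 7, 144929931 to 144939869, GRCm38/mm10, minus strand) encodes cyclin D1. It stood at 38.7, 36.3 and 37.6 CPM in untreated knock-in, against 12.9, 12 and 14.5 CPM in untreated wild type. The groups were far apart, and the fitted rise was 2.85-fold (1.51 ± 0.06 log2, edgeR adjusted p = 9.84e-18). LTO1, which overlaps it on the other strand, did not follow, at 16.1 ± 0.98 CPM in untreated knock-in and 16.3 ± 1.5 CPM in untreated wild type (SD, n = 3; −0.01 ± 0.07 log2, edgeR adjusted p = 0.899). Ccnd3 (ENSMUSG00000034165, chromosome 17, 47505051 to 47599691) encodes cyclin D3. It had 37.8, 36.3 and 36.7 CPM in untreated knock-in and 33.4, 40.4 and 32.2 CPM in untreated wild type, with overlapping groups and a difference of 0.06 log2 (95% interval −0.06 to 0.19, not called). Ccnd2, which encodes cyclin D2, was near the lower end of what could be tested, with 28 to 47 counts a library in untreated knock-in and 19 to 21 in untreated wild type (0.58 ± 0.26 log2, edgeR adjusted p = 0.0814).

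Ccne1 (ENSMUSG00000002068, chromosome 7, 38097984 to 38107534, minus strand) encodes cyclin E1, and its change was close to that of Ccnd1, with overlapping 95% intervals (1.43 to 1.91 log2 for Ccne1 and 1.38 to 1.64 log2 for Ccnd1). It stood at 7.54, 8.06 and 8.67 CPM in untreated knock-in, against 2.49, 2.56 and 2.58 CPM in untreated wild type, far above the spread in either group (1.67 ± 0.12 log2, edgeR adjusted p = 1.1e-12). Ccne2 (ENSMUSG00000028212, chromosome 4, 11191351 to 11204779), the cyclin E2 gene, had 6.78, 6.38 and 7.64 CPM in untreated knock-in and 4.8, 4.85 and 5.44 CPM in untreated wild type. Its groups did not overlap either, but its rise was smaller, at 1.38-fold (0.46 ± 0.11 log2, edgeR adjusted p = 0.00124). E2f1 (ENSMUSG00000027490, chromosome 2, 154559407 to 154569892, minus strand), an activator of S phase genes, had 9.4, 9.8 and 10.5 CPM in untreated knock-in and 7.14, 7.89 and 6.8 CPM in untreated wild type (0.45 ± 0.09 log2, edgeR adjusted p = 0.000147). E2f2 (ENSMUSG00000018983, chromosome 4, 136172394 to 136196057), a second activator, had 4.29, 4.86 and 5.14 CPM in untreated knock-in and 3.08, 2.82 and 3.33 CPM in untreated wild type (0.63 ± 0.12 log2, edgeR adjusted p = 0.000144). Both E2F genes were higher in each knock-in library than in any wild-type library without treatment.

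Among the inhibitors, Cdkn1b (ENSMUSG00000003031, chromosome 6, 134920401 to 134925513), the p27 gene, had 41.5, 43.5 and 43.8 CPM in untreated knock-in and 47.6, 43.7 and 44.7 CPM in untreated wild type. The groups overlapped, and the difference of −0.08 log2 (95% interval −0.18 to 0.03; 0.02 log2 with total-count scaling) was not called. Cdkn2c (ENSMUSG00000028551, chromosome 4, 109660876 to 109667189, minus strand), the p18 gene, had 3.88, 3.6 and 4.15 CPM in untreated knock-in and 2.86, 2.33 and 4.37 CPM in untreated wild type, where replicate 3 stood above the rest (0.28 ± 0.17 log2, edgeR adjusted p = 0.22). Cdkn1c (ENSMUSG00000037664, chromosome 7, 143458350 to 143461050, minus strand), the imprinted p57 gene, had only 12 to 35 counts a library in untreated knock-in and 13 to 22 in untreated wild type, and its interval ran from −0.64 to 0.71 log2. For Cdkn2c, Ccnd3 and Ccnd2, not called in the main fit, the outcome depended on single libraries. Cdkn2c was called without untreated wild-type replicate 3 (0.58 log2, edgeR adjusted p = 0.00617, range over its alternatives 0.00617 to 0.681). Ccnd3 was called without untreated wild-type replicate 2 (0.18 log2, edgeR adjusted p = 0.00895, range 0.00895 to 0.98). Ccnd2 was called without untreated knock-in replicate 2 (0.73 log2, edgeR adjusted p = 0.0453, range 0.034 to 0.423). With total-count scaling Ccnd2 (0.68 log2, edgeR adjusted p = 0.034) and Ccnd3 (0.17 log2, edgeR adjusted p = 0.0236) were called as well.

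Markers of other liver cells moved with genotype too. Summed cholangiocyte markers stood at 40.8 to 43.4 CPM in untreated knock-in and 15.1 to 18 CPM in untreated wild type, with Cftr at 0 in the knock-in groups, and 4 of the 5 tested rose. Summed macrophage markers stood at 9.22 to 10.1 CPM in untreated knock-in and 7.27 to 7.84 CPM in untreated wild type (2 of 8 rose). Endothelial markers stood at 46.7 to 52.1 CPM in untreated knock-in and 76.6 to 88.2 CPM in untreated wild type (2 of 7 tested fell), and stellate markers at 108 to 122 CPM in untreated knock-in and 187 to 220 CPM in untreated wild type (2 of 7 tested fell). Most of the endothelial sum was Stab2, at 33.6 ± 2.5 CPM in untreated knock-in and 65.1 ± 4.8 CPM in untreated wild type. Cdh5 fell too, while Pecam1, Kdr and Lyve1 were not called (−0.1, −0.04 and 0.1 log2), nor were Tek and Erg. Most of the stellate sum was Reln, at 109 ± 6.1 CPM in untreated knock-in and 200 ± 19 CPM in untreated wild type (SD, n = 3). Dcn fell too, at 3.35 ± 0.71 and 5.19 ± 0.38 CPM in the same order. Lrat, Pdgfrb, Col1a1, Col1a2 and Acta2, at means of at most 1.22 CPM, were not called (0.59, −0.94, −0.54, −0.51 and −0.4 log2). Des did not pass the filter. Of 8 leukocyte markers, none passed the filter, and their sum was at most 0.511 CPM in any library. Of the 8 hepatocyte markers, 1 rose and 4 fell. The part of these cells in the differences above was not tested.

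**Figure D3:**
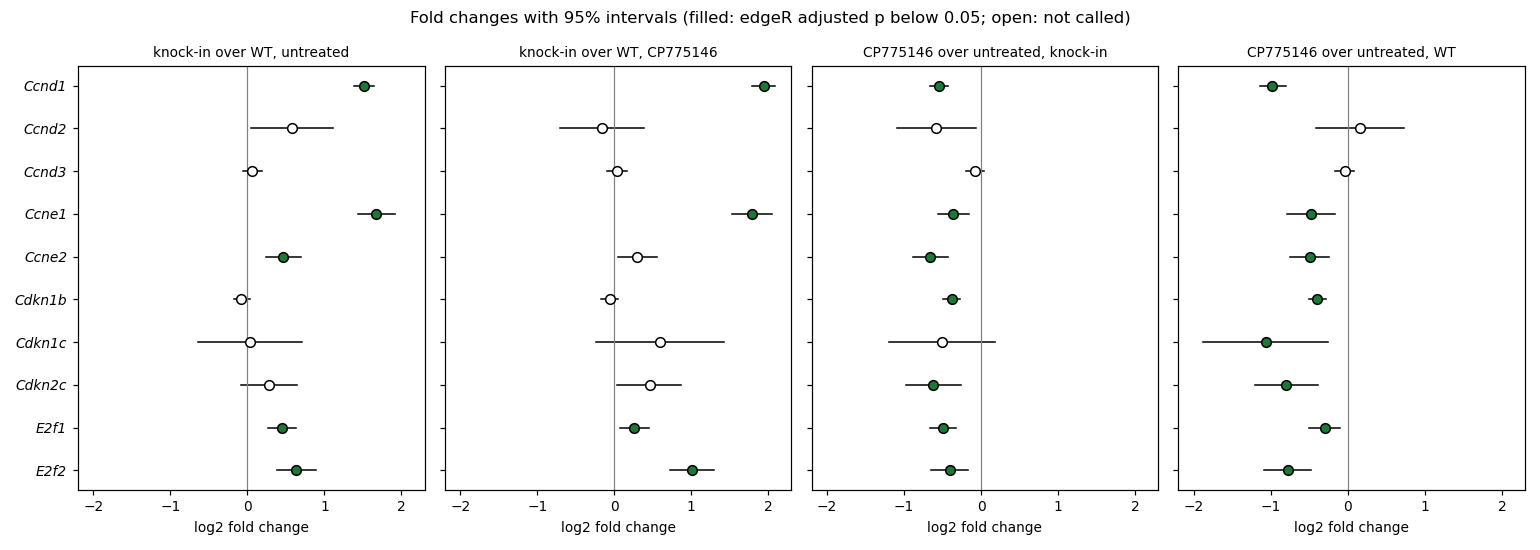
Log2 fold changes of the 10 genes (horizontal axes) in 4 comparisons of 3 against 3 libraries, with 95% intervals from the edgeR fit; filled points had an adjusted p below 0.05. Ccnd1 and Ccne1 lie between 1.51 and 1.94 log2 in both comparisons of genotype, and no gene called for CP775146 over untreated lies above 0.

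The second comparison asked what CP775146 did to these genes in knock-in hepatocytes. Of the 10 genes, 7 fell and none rose, where 37.2% of all tested genes were called and 19.1% fell. The 7 were Ccnd1, both E-type cyclins, both E2F genes and the inhibitor genes Cdkn1b and Cdkn2c, so cyclins and inhibitors were lower together. The median was −0.5 log2 over the 10 genes and −0.01 log2 over all tested genes. Ccnd1 stood at 25.6, 24.8 and 26.4 CPM in treated knock-in, against the untreated values above, a change of −0.55 ± 0.06 log2 (0.684-fold, edgeR adjusted p = 3.59e-09). Ccne2 had 3.94, 4.75 and 4.5 CPM in treated knock-in (−0.66 ± 0.11 log2, edgeR adjusted p = 1.59e-05), and Ccne1 had 6.92, 6.47 and 5.57 CPM (−0.36 ± 0.1 log2, edgeR adjusted p = 0.00397). For all of these the treated libraries were below the untreated ones without overlap. Cdkn1b had 33.1, 33.2 and 32.4 CPM in treated knock-in (−0.38 ± 0.05 log2, edgeR adjusted p = 6.78e-07) and Cdkn2c 2.32, 2.55 and 2.67 CPM (−0.62 ± 0.17 log2, edgeR adjusted p = 0.00591). E2f1, at 7.14, 6.99 and 7.04 CPM in treated knock-in, then lay within the range of untreated wild type (−0.49 ± 0.09 log2, edgeR adjusted p = 3.13e-05). E2f2, at 4, 3.28 and 3.52 CPM, fell by 0.41 ± 0.12 on the log2 scale (edgeR adjusted p = 0.00639). Ccnd3, at 34.7, 36.2 and 34.2 CPM in treated knock-in, was not called (95% interval −0.2 to 0.04 log2), nor was Cdkn1c, with 11 to 25 counts a library. Hepatocyte markers changed in the knock-in, with 1 of 8 higher (Asgr1, 0.68 log2) and 5 lower, Cps1 the most (−1.24 ± 0.04 log2). Markers of other cells moved as well in the knock-in. Summed macrophage markers were at 6.53 to 7.46 CPM treated and 9.22 to 10.1 CPM untreated (3 of 8 fell), and endothelial markers at 35 to 40.5 CPM treated and 46.7 to 52.1 CPM untreated (1 of 7 tested fell). That 1 was Stab2, most of the endothelial sum, at 24.4 ± 2.9 CPM treated and 33.6 ± 2.5 CPM untreated. Stellate markers were at 67.5 to 78 CPM treated and 108 to 122 CPM untreated (2 of 7 tested fell), nearly all of it Reln at 67.1 ± 4.6 CPM treated and 109 ± 6.1 CPM untreated, and the list's median was −0.12 log2. Cholangiocyte markers went both ways, at 48.3 to 52.5 CPM treated and 40.8 to 43.4 CPM untreated, with 2 of 5 tested higher (Sox9 and Spp1), Krt7 lower and Krt19 not called. The part of these cells in the falls was not tested. Without treated knock-in replicate 3 the call of Ccne1 ended (−0.28 log2, edgeR adjusted p = 0.0525, range over its alternatives 0.000344 to 0.0525). Ccnd2, at −0.58 ± 0.25 log2 (edgeR adjusted p = 0.0669), was called without untreated knock-in replicate 2 (−0.73 log2, edgeR adjusted p = 0.0382, range 0.0379 to 0.412) and with total-count scaling (−0.64 log2, edgeR adjusted p = 0.0379).

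The third comparison asked the same of wild-type hepatocytes. Of the 10 genes, 8 fell and none rose, where 45% of all tested genes were called and 22.3% fell. They were the 7 named for the knock-in and Cdkn1c, and the median was −0.49 log2, against −0.005 log2 over all tested genes. Ccnd1 stood at 6.64, 7.01 and 6.36 CPM in treated wild type, against a mean of 13.1 ± 1.3 CPM in untreated wild type (SD, n = 3; 0.508-fold, −0.98 ± 0.08 log2, edgeR adjusted p = 2.07e-11). The overlapping gene LTO1 rose, at 21.3 ± 1.3 CPM in treated and 16.3 ± 1.5 CPM in untreated wild type (SD, n = 3; 0.39 ± 0.07 log2, edgeR adjusted p = 5.99e-05). E2f2 had 1.71, 1.84 and 1.82 CPM in treated wild type (−0.78 ± 0.15 log2, edgeR adjusted p = 7.95e-05) and Cdkn1b 34.5, 36.9 and 31.5 CPM (−0.4 ± 0.05 log2, edgeR adjusted p = 3.49e-07). The libraries of both were below all untreated ones. Cdkn2c had 1.45, 2.38 and 1.67 CPM in treated wild type (−0.8 ± 0.2 log2, edgeR adjusted p = 0.00196), and here the groups overlapped narrowly, since untreated replicate 2 was at 2.33 CPM. Ccne2, at 3.15, 4.05 and 3.53 CPM, fell by 0.49 ± 0.13 on the log2 scale (edgeR adjusted p = 0.00178), and Ccne1, at 1.94, 1.84 and 1.67 CPM, by 0.48 ± 0.15 (edgeR adjusted p = 0.0109). E2f1 had 6.21, 6.13 and 5.32 CPM in treated wild type (−0.3 ± 0.1 log2, edgeR adjusted p = 0.0113). Cdkn1c rested on 8 to 10 counts a library in treated wild type and 13 to 22 in untreated wild type (−1.07 ± 0.4 log2, edgeR adjusted p = 0.0263). Ccnd3, at 34.5, 33.9 and 34.4 CPM in treated wild type, was not called (95% interval −0.17 to 0.08 log2), nor was Ccnd2 (−0.41 to 0.73 log2). Summed cholangiocyte markers were at 32.8 to 33.8 CPM in treated and 15.1 to 18 CPM in untreated wild type (3 of 5 tested rose and Krt7 fell), and macrophage markers at 5.12 to 5.58 CPM in treated and 7.27 to 7.84 CPM in untreated wild type (2 of 8 fell). Endothelial markers were at 66.5 to 68.8 CPM in treated and 76.6 to 88.2 CPM in untreated wild type (2 of 7 tested fell), and stellate markers, none of them called, at 160 to 197 CPM in treated and 187 to 220 CPM in untreated wild type. Most of the endothelial sum was Stab2, at 52.8 ± 1.5 CPM treated and 65.1 ± 4.8 CPM untreated. Most of the stellate sum was Reln, at 168 ± 19 CPM treated and 200 ± 19 CPM untreated. Hepatocyte markers went both ways in wild type, with 2 of 8 higher (Ttr and Asgr1) and 4 lower, Cps1 the most (−1.86 ± 0.04 log2). The part of these cells in the changes was not tested.

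Of these 8 calls, those of Cdkn1c, E2f1 and Ccne1 were lost under some alternative. That of Cdkn1c ended without treated wild-type replicate 1 or 2 or untreated wild-type replicate 1 or 3 (edgeR adjusted p = 0.0559, 0.0804, 0.0843 and 0.0789) and in limma voom (adjusted p = 0.0619), over a range of 0.0135 to 0.0843. That of E2f1 ended without treated wild-type replicate 3 (−0.24 log2, edgeR adjusted p = 0.065) or untreated wild-type replicate 2 (−0.24 log2, edgeR adjusted p = 0.0747), over a range of 0.00102 to 0.0747. That of Ccne1 ended in limma voom (−0.48 log2, adjusted p = 0.0552, range 0.00233 to 0.0552).

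Under CP775146, 4 of the 10 genes were higher in knock-in than in wild-type hepatocytes and none was lower, where 42.5% of all tested genes were called and 20.5% rose. With total-count scaling 7 of the 10 genes were called, where 5950 of all 15664 tested genes were higher and 1867 lower (median 0.124 log2). This comparison shares its treated libraries with the 2 comparisons above. Ccnd1 averaged 25.6 ± 0.81 CPM in treated knock-in and 6.67 ± 0.33 CPM in treated wild type (SD, n = 3), a 3.84-fold difference (1.94 ± 0.07 log2, edgeR adjusted p = 4.94e-19). Treated knock-in libraries were thus above the untreated wild-type ones, at most 14.5 CPM. Ccne1 averaged 6.32 ± 0.69 CPM in treated knock-in and 1.82 ± 0.13 CPM in treated wild type (3.46-fold, 1.79 ± 0.13 log2, edgeR adjusted p = 1.24e-12). E2f2 was 2.01-fold higher, at 3.6 ± 0.37 CPM in treated knock-in and 1.79 ± 0.071 CPM in treated wild type (edgeR adjusted p = 8.99e-07). For E2f1, at 7.06 ± 0.077 CPM in treated knock-in and 5.88 ± 0.49 CPM in treated wild type, the difference was 0.26 ± 0.09 log2 (edgeR adjusted p = 0.0272). Its call was lost without treated knock-in replicate 1, 2 or 3 or treated wild-type replicate 3 (edgeR adjusted p = 0.0676, 0.051, 0.0587 and 0.128) and in DESeq2 (adjusted p = 0.056), over a range of 0.000891 to 0.128. Ccne2 (0.3 ± 0.12 log2, edgeR adjusted p = 0.0519) and Cdkn2c (0.46 ± 0.2 log2, edgeR adjusted p = 0.0738) just missed the threshold, and each was called in 7 of its alternatives, such as without treated wild-type replicate 2 (0.41 log2, edgeR adjusted p = 0.0189 for Ccne2, and 0.7 log2, edgeR adjusted p = 0.0125 for Cdkn2c). Their ranges were 0.00418 to 0.207 and 0.0125 to 0.278. Cdkn1b (−0.06 log2, 95% interval −0.17 to 0.05; 0.07 log2 with total-count scaling) and Ccnd3 (0.03 log2, −0.09 to 0.16) were not called, though Ccnd3 was with total-count scaling (0.17 log2, edgeR adjusted p = 0.0189). Summed cholangiocyte markers were at 48.3 to 52.5 CPM in treated knock-in and 32.8 to 33.8 CPM in treated wild type (3 of 5 tested higher), and macrophage markers at 6.53 to 7.46 CPM in treated knock-in and 5.12 to 5.58 CPM in treated wild type (4 of 8 higher). Endothelial markers were at 35 to 40.5 CPM in treated knock-in and 66.5 to 68.8 CPM in treated wild type, and stellate markers at 67.5 to 78 CPM in treated knock-in and 160 to 197 CPM in treated wild type (2 of 7 tested lower in each list). Most of the endothelial sum was Stab2, at 24.4 ± 2.9 CPM in treated knock-in and 52.8 ± 1.5 CPM in treated wild type. Most of the stellate sum was Reln, at 67.1 ± 4.6 and 168 ± 19 CPM in the same order. Hepatocyte markers went both ways, with 2 of 8 higher in treated knock-in (Apob and Cps1) and 5 lower. The part of these cells in the 4 differences was not tested.

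The interaction asked whether CP775146 acted differently by genotype. It was called for 1 of the 10 genes, Ccnd1, where 7.11% of all tested genes were called and 2.78% were higher. Over all genes it was called higher for 435 and lower for 678, a split that turned to 663 and 519 with total-count scaling. On the log2 scale the fall of Ccnd1 was smaller in the knock-in than in wild type by 0.43 ± 0.1 (edgeR adjusted p = 0.00557). In CPM the order was the other way, with treated minus untreated at −11.9 ± 0.84 CPM in the knock-in and −6.47 ± 0.77 CPM in wild type (SE, n = 3 each). For E2f2 the interaction was 0.37 ± 0.19 log2 (95% interval −0.02 to 0.77) and for Ccne1 0.12 ± 0.18 log2 (−0.25 to 0.49), neither called. For Cdkn1b the interval was narrow, at −0.14 to 0.17 log2, and for Cdkn1c wide, at −0.52 to 1.64 log2.

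Partners, regulators and targets of these 10 genes were followed at the RNA level in lists of other G1 and S phase genes, also chosen with earlier results known. Of 26 E2F target genes, 23 rose and 1 fell in untreated knock-in against untreated wild type (median 0.77 log2), and CP775146 lowered 20 in the knock-in (median −0.395 log2) and 16 in wild type (median −0.325 log2), raising none. Over all tested genes, 18.4% rose and 18.6% fell between those genotypes. CP775146 lowered 19.1% of all tested genes in the knock-in and 22.3% in wild type. Mcm5, a subunit of the replicative helicase, averaged 19.7 ± 0.5 CPM in untreated knock-in and 6.93 ± 0.13 CPM in untreated wild type (1.51 ± 0.07 log2, edgeR adjusted p = 1.41e-16). Mcm7, another subunit, averaged 23.6 ± 0.98 CPM in treated and 31.7 ± 0.73 CPM in untreated knock-in (−0.42 ± 0.05 log2, edgeR adjusted p = 7.23e-08), and Cdt1, a replication licensing factor gene, 6.23 ± 0.27 CPM in treated and 11 ± 1.5 CPM in untreated wild type (−0.81 ± 0.1 log2, edgeR adjusted p = 3.83e-08). Rrm2, a ribonucleotide reductase gene, was the 1 that fell in the knock-in, at 34.5 ± 2.7 CPM in untreated knock-in and 59.2 ± 4.3 CPM in untreated wild type (−0.78 ± 0.06 log2, edgeR adjusted p = 5.48e-11).

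Of 6 genes for G1 kinases and the CDK-activating kinase complex (Cdk2, Cdk4, Cdk6, Cdk7, Ccnh and Mnat1), 3 rose and none fell in untreated knock-in. Those were Cdk2, Cdk6 and Mnat1, a non-kinase subunit of that complex. Of all tested genes, 18.4% rose and 18.6% fell. Cdk6, a partner of the D-type cyclins, averaged 114 ± 1.3 CPM in untreated knock-in and 68.8 ± 4 CPM in untreated wild type (0.72 ± 0.05 log2, edgeR adjusted p = 1.6e-13), and Cdk2, the partner of cyclin E, 20.5 ± 0.43 and 15.9 ± 0.85 CPM in the same order (0.37 ± 0.06 log2, edgeR adjusted p = 8.8e-06). Cdk4, the other partner of the D-type cyclins, was not called, at 108 ± 1.5 and 108 ± 5.9 CPM (0 ± 0.04 log2, edgeR adjusted p = 0.998). CP775146 lowered Cdk6 in both genotypes, to 93.1 ± 0.91 CPM in treated knock-in and 52.6 ± 3.8 CPM in treated wild type (SD, n = 3; −0.29 and −0.38 log2). Cdk2 fell in the knock-in (−0.23 ± 0.06 log2, edgeR adjusted p = 0.0023) and was not called in wild type (0.09 log2). Its interaction was called (−0.32 ± 0.08 log2, edgeR adjusted p = 0.0166), and the treated genotypes did not differ by call (0.05 log2, edgeR adjusted p = 0.524). Of 3 further tested inhibitor genes, Cdkn1a, the p21 gene, fell in untreated knock-in, at 357 ± 2.4 CPM against 471 ± 16 CPM in untreated wild type (−0.4 ± 0.04 log2, edgeR adjusted p = 3.06e-10), and was not called for CP775146. Cdkn2b, the p15 gene, rose with CP775146 in the knock-in (0.47 ± 0.14 log2, edgeR adjusted p = 0.0101) and in wild type (0.8 ± 0.16 log2, edgeR adjusted p = 0.000105). Cdkn2a had at most 1 count a library. Of 3 pocket protein genes, Rbl1, the p107 gene, rose (0.36 ± 0.09 log2, edgeR adjusted p = 0.00223) and Rb1, the retinoblastoma gene, fell (−0.22 ± 0.07 log2, edgeR adjusted p = 0.00804) in untreated knock-in.

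Of 8 other E2F and DP genes, 4 rose and 1 fell in untreated knock-in, where 18.4% of all tested genes rose and 18.6% fell. E2f3, also an activator, averaged 25.5 ± 1.8 CPM in untreated knock-in and 23.2 ± 0.38 CPM in untreated wild type. It was not called between these groups (0.14 ± 0.06 log2, edgeR adjusted p = 0.0678) or for CP775146 (0.01 log2 in both genotypes). E2f7, an atypical repressor, averaged 1.49 ± 0.15 CPM in untreated knock-in and 0.171 ± 0.018 CPM in untreated wild type (3.1 ± 0.33 log2, edgeR adjusted p = 5.85e-09). The wild-type level was not far above that of 3 counts, 0.107 to 0.111 CPM in these libraries. E2f7 thus passed the filter through the knock-in, and the size of its difference is uncertain. E2f8, its close relative, averaged 4.34 ± 0.33 CPM in treated and 4.35 ± 0.6 CPM in untreated knock-in, against 4.38 ± 0.66 CPM in treated and 2.52 ± 0.23 CPM in untreated wild type. CP775146 thus raised it in wild type (0.8 ± 0.14 log2, edgeR adjusted p = 3.28e-05), opposite to E2f1 and E2f2, and its interaction was called (−0.81 ± 0.19 log2, edgeR adjusted p = 0.00728). A list of 6 genes held the turnover machinery of p27 and cyclin E and the CDK-activating phosphatase gene Cdc25a. In untreated knock-in 1 of them rose, Cks1b, a cofactor for the destruction of p27 (0.6 ± 0.09 log2, edgeR adjusted p = 6.76e-06), and 1 fell, near the shares of all tested genes. CP775146 raised 1 and lowered 2 in the knock-in, and raised 3 and lowered 2 in wild type. Of all tested genes, it raised 18.1% and lowered 19.1% in the knock-in, and raised 22.7% and lowered 22.3% in wild type. Skp1a, a shared subunit of the ligase complex, rose in the knock-in (0.44 ± 0.04 log2, edgeR adjusted p = 9.1e-10) and in wild type (0.6 ± 0.04 log2, edgeR adjusted p = 7.55e-13), and Cks1b rose in wild type (0.37 ± 0.1 log2, edgeR adjusted p = 0.00301). Skp2, the ubiquitin ligase subunit that recognises p27, fell with CP775146 in the knock-in (−0.52 ± 0.14 log2, edgeR adjusted p = 0.00278) and in wild type (−0.54 ± 0.15 log2, edgeR adjusted p = 0.00431), along with Cdkn1b itself.

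**Figure D4:**
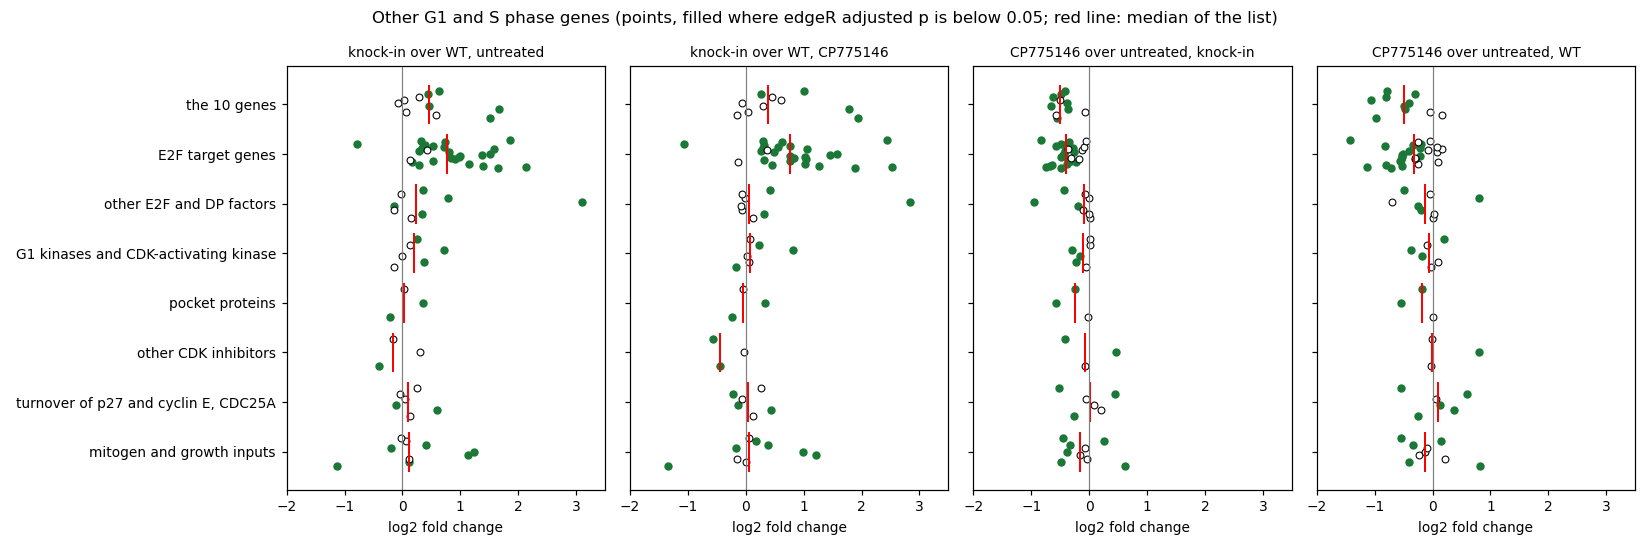
Log2 fold changes (horizontal axes) of the 10 genes and of 7 lists of other G1 and S phase genes (rows) in 4 comparisons; each point is a gene, filled where the edgeR adjusted p was below 0.05, and red lines are medians. E2F targets have medians of 0.77 and 0.765 log2 for knock-in over wild type and −0.395 and −0.325 log2 for CP775146 in knock-in and wild type.

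Among 10974 tested genes with a mean of at least 1 CPM, those whose log2 CPM followed each of the genes most closely over the 12 libraries were listed as a description. The 12 libraries form 4 groups, and all genes share their depth and scaling. Ccnd1 was nearest to Sult2a1, a hydroxysteroid sulfotransferase gene (Pearson r = 0.997), and Akr1c14, an aldo-keto reductase gene (0.995). Ccne1 was nearest to Tgfbr2 and Itga3, which encode a TGF-beta receptor and an integrin (both 0.994). Ccne2 was nearest to Msh6, a mismatch repair gene (0.985), and Cdkn1b to Arid5b and Rabgap1 (both 0.983). Among the 10 genes, Ccnd1 correlated at 0.97 with Ccne1 and 0.96 with E2f2, Ccne2 at 0.92 with Cdkn2c, and Cdkn1b at only 0.24 with Ccnd1 and 0.08 with Ccne1. For Ccnd2, Ccnd3 and Cdkn1c no gene passed 0.869.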

How the data were processed

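Total RNA of 12 hepatocyte libraries (Illumina TruSeq) was sequenced on a HiSeq3000. The deposited values are raw read counts per gene, made by the authors with featureCounts 1.6.2, per the file headers, over exons of Ensembl release 83 (GRCm38) from Subread alignments to mm10, with no strand or multi-mapping option. The submitters' processing notes name featureCounts 1.4.6-p4, FastQC 0.11.2, cutadapt 1.9 and edgeR 3.18.1. Groups came from the sample titles.

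Counts were filtered with filterByExpr (minimum 10, minimum total 15), which kept at least 99.93% of the counts. TMM scaling and the robust glmQLFit and glmQLFTest of edgeR 4.0.16 (R 4.3.3) followed, with a mean for each of the 4 groups, for 5 contrasts. Calls had a Benjamini-Hochberg adjusted p below 0.05 over all 15664 genes. Errors of fold changes are SE from the quasi-likelihood F, and levels are CPM on TMM-scaled library sizes. Symbols came from a table of Ensembl gene names, which named 46488 of 46983 identifiers, and coordinates and exonic lengths from the count files. The fit was tested on simulated data. The alternatives tried comprised other scaling (RLE, total counts), other tools (DESeq2 1.42.0, voom of limma 3.58.1 with sample weights), no filter, 5 CPM in 3 libraries, the compared groups alone, the replicate number as a block, each library left out, and CPM not divided by length. Named genes were all 10 members, at most 4 per list and contrast, taken by smallest p, and the 2 closest genes in pattern. Marker genes, and a few genes that overlap members, go against their list or share the role of a named gene, were added. The members and lists were chosen with earlier results of these data known. No 2 libraries agreed within sampling noise (chi-square per degree of freedom 1.7 to 6.79 between replicates).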

Additional observations from a re-analysis of the deposited data

Results flagged for a closer look

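The response of Ccnd1 to CP775146 differed between the genotypes by the test of the difference itself. The interaction was 0.43 log2 (edgeR adjusted p = 0.00557), with treated over untreated at −0.55 log2 in the knock-in and −0.98 log2 in wild type. All 3 treated libraries were below all 3 untreated ones in each genotype. The call held in each of 19 alternatives, at 0.35 to 0.49 log2 and an adjusted p of 0.00173 to 0.0224. The spread between libraries was smaller in the knock-in than in wild type, and its part in this call was not tested.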

How the results depend on the processing

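Of 970 comparisons of a member's fold change with its main value, 920 kept direction and side of the threshold, 22 gained a call, 14 lost one and 14 changed sign, none of these past the threshold in either fit. The calls of Ccnd1 held throughout. With total-count scaling Cdkn1b went to 0.02 log2 (genotypes untreated) and 0.07 log2 (genotypes treated), and Ccnd3 to 0 log2 (interaction). In limma voom Cdkn1c went to −0.18 log2 (genotypes untreated). Leaving out 1 library gave −0.32 to 0.34 log2 for Cdkn1c (genotypes untreated; negative at −0.32 and −0.15), −0.11 to 0.07 log2 for Ccnd3 (CP775146 in wild type) and −0.11 to 0 log2 for Cdkn1b (genotypes treated). For the interactions it gave −0.14 to 0.03 log2 for Ccnd3, −0.03 to 0.08 log2 for Cdkn1b and −0.12 to 0.43 log2 for Cdkn2c. The cause was not tested. The number of members called changed by over 1.5 times for the treated genotypes with total-count scaling (7 against 4) and for CP775146 in wild type with the filter of 5 CPM (5 against 8), where fewer members were tested. All genes called for the interaction numbered 732 to 1468 with 1 library left out, against 1113, the lowest without treated knock-in replicate 1. Not divided by length, Ccnd1 made up 41.7% (treated knock-in), 49.6% (untreated knock-in), 16% (treated wild type) and 26.9% (untreated wild type) of D-type cyclin counts, Ccnd2 1.19%, 1.45%, 1.97% and 1.49%, and Ccnd3 57.1%, 48.9%, 82.1% and 71.6%, in the same order. Same-numbered libraries showed no shared deviation (18 correlations from −0.026 to 0.063). This cannot tell whether they share a mouse or dish, which the labels do not say. With the replicate number as a block the members called numbered 5 (genotypes untreated), 8 (CP775146 in wild type), 7 (CP775146 in the knock-in), 4 (genotypes treated) and 1 (interaction), with no call changed. Ccnd2 and Cdkn1c, with 8 to 47 counts a library, are limited by depth.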

Other observations

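Genes of the mitogen and growth signals that feed into cyclin D1 went both ways with genotype. Of 9 such genes, 4 rose and 2 fell in untreated knock-in, and 4 were higher and 2 lower in treated knock-in than in treated wild type. Over all tested genes, 18.4% rose and 18.6% fell in the first comparison, and 20.5% were higher and 22% lower in the second. Hbegf, a ligand of the EGF receptor, averaged 6.95 ± 0.58 CPM in untreated knock-in and 2.94 ± 0.39 CPM in untreated wild type (SD, n = 3; 1.24 ± 0.12 log2, edgeR adjusted p = 1.32e-09). Areg, another ligand of that receptor, went the opposite way, at 7.42 ± 0.78 CPM in untreated knock-in and 16.3 ± 0.76 CPM in untreated wild type (−1.13 ± 0.08 log2, edgeR adjusted p = 3.31e-12). Fosl1, an AP-1 subunit gene, averaged 15 ± 0.54 CPM in untreated knock-in and 6.83 ± 0.57 CPM in untreated wild type (edgeR adjusted p = 1.2e-10).

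CP775146 lowered the receptor gene Egfr to 265 ± 1.1 CPM in treated knock-in, against 373 ± 10 CPM in untreated knock-in (−0.49 ± 0.04 log2, edgeR adjusted p = 3.99e-12). In wild type Egfr averaged 262 ± 6.8 CPM treated and 345 ± 13 CPM untreated (−0.4 ± 0.04 log2, edgeR adjusted p = 4.14e-10). Tgfa, a ligand gene, and Met, the receptor gene for hepatocyte growth factor, fell in both genotypes as well (Tgfa −0.46 and −0.54 log2, Met −0.34 and −0.33 log2, in knock-in and wild type). Areg rose, by 0.62 log2 in the knock-in and 0.82 log2 in wild type.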
